A study of Danio rerio with 24 samples.

Results

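Intestines of zebrafish larvae at 9 days post fertilization (dpf) were compared with intestines at 5 dpf, gene by gene, in RNA sequencing libraries. The analysis covers every gene whose value reached 10 in 3 or more of the 9 RNA libraries of the series, 24298 of the 30263 genes in the deposited table. The 9 dpf group held 3 libraries and the 5 dpf group held 3, each made from a pool of 10 dissected intestines. Larvae of both ages were of the AB strain, wild type, and carried tg(cldn15la:GFP), a transgene that places a green fluorescent protein under the control of the enterocyte claudin gene cldn15la. All were reared at 28.5 °C under 14 hours of daily light and 10 of darkness, and Gemma Micro, rotifers and Artemia are the named foods. The labels do not state when feeding began or whether separate clutches gave the pools, so the p-values measure the spread between pools, which may be technical. The libraries were made from total RNA after removal of ribosomal RNA. Names such as 9dpf_2 give the age and number of a library.

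Zebrafish larvae use up their yolk and begin to eat within the span studied, and the gut then takes over the supply of nutrients. Its lining is made mostly of enterocytes, which digest and absorb food, pack fat into lipoproteins for export, and secrete and renew many proteins of their surface. Such cells rely on the secretory route through the endoplasmic reticulum and Golgi, and on the proteasome, the barrel-shaped protease that breaks down proteins tagged with ubiquitin. Whole intestines also hold smooth muscle, connective tissue, nerve and immune cells, and dissection can carry over liver and pancreas. In such bulk RNA, fewer cells of a type and less RNA per cell cannot be told apart.

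More genes rose than fell. Of the 24298 genes, 12.6% passed an adjusted p under 0.05 as higher at 9 dpf and 4.28% as lower, 16.8% in all, and 5.19% passed with a change of at least 2-fold. A call is said below to have held where it kept its direction and passed in all 17 alternative settings of scaling, filter, test and left-out library that gave the gene a p. That was so for 5.44% of genes as higher and 0.967% as lower, 6.4% in all. The median gene differed by -0.04 on the log2 scale. By abundance the median ran from -0.23 below a mean of 30 normalized reads to 0.50 between 3000 and 10000. Above 10000 it was 0.38. Values of every 9 dpf library lay above every 5 dpf library in 20.5% of genes, and below in 15.7%. The 9 dpf libraries held 9974251, 14327144 and 11007442 reads, and the 5 dpf libraries 7438866, 7014333 and 11721671.

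The share of genes called higher differed with abundance. Among genes with a mean of 1000 to 3000 normalized reads 32.9% rose and 1.97% fell, whereas between 30 and 100 normalized reads 4.86% rose and 5.38% fell. Genes called higher made up 29.7% to 30.9% of the normalized reads of tested genes at 9 dpf, against 17.38% to 17.99% at 5 dpf. Genes called lower made up 0.966% to 1.24% at 9 dpf, against 2.72% to 3.12% at 5 dpf. Both sets were picked by their difference between these ages, so the calls fixed the direction of these shares. The excess of rises over falls depended on scaling. Risers were 74.6% of the called genes here, 63.5% after TMM scaling, 55.1% after cyclic loess and 53.2% after quantile scaling. Normalized totals ran from 1.01e+07 to 1.41e+07 at 9 dpf, against 6.54e+06 to 9.98e+06 at 5 dpf. The lowest of them was that of 5dpf_2, in which the 10 most abundant genes took 16.7% of the reads, against 21.6% and 21.7% in the other two 5 dpf libraries. Of 89 gene lists with at least 1 fall, the count of falls grew by more than 1.5 times in 57 under quantile, 55 under cyclic loess and 32 under TMM scaling. The count of called genes fell to 1820 without 9dpf_2 and to 2306 without 9dpf_3, against 4094 with all libraries.

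**Figure D1:**
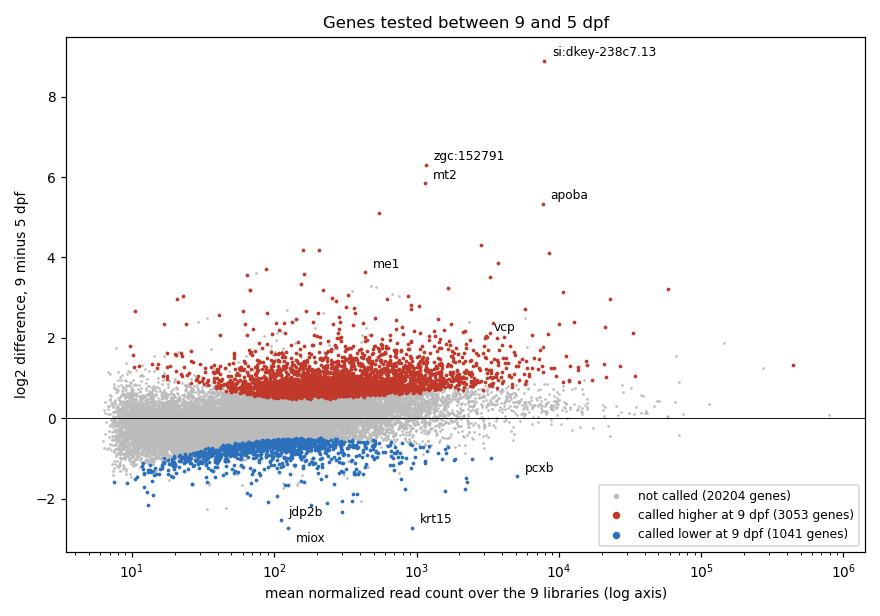
Log2 difference of each tested gene (9 minus 5 dpf, vertical axis) against its mean normalized read count over the 9 libraries (log axis); red points were called higher at 9 dpf, blue points lower and grey points neither. The largest difference is that of si:dkey-238c7.13 at 8.89, and the abundant end of the plot holds more red than blue points.

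The largest change was in a transcript with no gene name. si:dkey-238c7.13 (ENSDARG00000092191), which the RefSeq gene table lists as a long noncoding RNA, had 10651, 17339 and 25175 normalized reads at 9 dpf, against 60.6, 22.4 and 28.96 at 5 dpf. It was scarce in each 5 dpf library and abundant in each 9 dpf library. The log2 difference was 8.89 (SE 0.85, adjusted p = 0.00113), and the call held. Another noncoding RNA named from the same clone, si:dkey-238c7.12, had 4777, 6748 and 7527 at 9 dpf, against 1449, 1602 and 1520 at 5 dpf (log2 2.03, SE 0.30, adjusted p = 7.83e-05). si:dkeyp-1h4.9, also listed as noncoding, had 17058, 23922 and 19457 at 9 dpf, against 2631, 1904 and 2278 at 5 dpf (log2 3.15, SE 0.31, adjusted p = 6.32e-07). All 3 noncoding RNAs were chosen after their values were seen, and in none did the ages overlap. Of 6206 genes with clone or placeholder names 6.01% were called higher and 2.64% lower, and of 18092 genes with a symbol 14.8% and 4.85%.

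Large rises among genes with a symbol came from many pathways. mt2, a metallothionein, rose by 5.84 on the log2 scale and apoba, an apolipoprotein B, by 5.34, while me1, malic enzyme, rose by 3.63, nr0b2a, a nuclear receptor that represses others, by 3.53 and slc13a1, a sulfate carrier, by 3.24. prdx1, a peroxiredoxin that reduces hydrogen peroxide, had 1560, 1702 and 1842 at 9 dpf, against 243, 149 and 373 at 5 dpf (log2 2.83, SE 0.26, adjusted p = 2.91e-07). clca1, a secreted protein typical of goblet cells in mammals, had 429, 440 and 471 at 9 dpf, against 55.5, 55.0 and 56.2 at 5 dpf (log2 2.98, SE 0.24, adjusted p = 5.90e-08). itln2, an intelectin that binds microbial sugars, rose by 3.05 (adjusted p = 1.22e-05) with 37.6 to 69.7 at 9 dpf, against 4.26 to 7.46 at 5 dpf. Its 5 dpf values lay under the filter value of 10, so itln2 passed the filter only through older libraries. They also rest on few reads, since 3 reads came to 2.56 to 3.87 normalized reads at 5 dpf. In prdx1, clca1 and itln2 every 9 dpf library lay above every 5 dpf library, as in 20.5% of all tested genes. eevs, which begins the synthesis of the sunscreen compound gadusol in fish, rose by 3.06 on the log2 scale (adjusted p = 6.71e-08). soul5, a member of a heme-binding protein family, rose by 2.79 and cyp2k18, a cytochrome P450, by 2.72. The thiopurine methyltransferase genes tpmt.1 and tpmt.2, which lie in the same gene family, rose by 2.52 and 2.39. hsd11b1la, related to the enzymes that interconvert cortisol and cortisone, rose by 2.47, and abcg5, part of the pump that returns plant sterols to the gut lumen, by 2.44. The adjusted p of these 6 genes lay between 9.59e-09 and 6.22e-06, and each call held.

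The largest fall, that of miox, which begins the breakdown of inositol, was -2.73 on the log2 scale, followed by krt15, a keratin, at -2.72, jdp2b, a repressor of AP-1, at -2.53 and klf4, a Kruppel-like factor, at -2.33. These 4 calls held. Among smaller falls, sik1, a kinase induced by cyclic AMP, had 247, 164 and 180 at 9 dpf, against 956, 552 and 715 at 5 dpf (log2 -1.89, SE 0.21, adjusted p = 3.83e-06). krt91, a keratin, had 661, 1173 and 1103, against 3539, 2613 and 3604 (log2 -1.76, SE 0.28, adjusted p = 0.000145). pcxb, pyruvate carboxylase, which feeds carbon into the citrate cycle and gluconeogenesis, had 2485, 3229 and 2937 at 9 dpf, against 9504, 5416 and 9154 at 5 dpf (log2 -1.44, SE 0.28, adjusted p = 0.00125). None of the 3 genes overlapped between ages, as was so for 15.7% of all tested genes in this direction. diabloa, whose product releases caspases from inhibition, fell by 1.80 on the log2 scale. The potassium channel subunit gene kcne4 fell by 1.66 and lpin1, a phosphatidate phosphatase, by 1.58. dpys and uox, which break down pyrimidines and uric acid, fell by 1.67 and 1.64. These 5 calls held, with adjusted p between 9.67e-06 and 0.00377. The fall of midn, whose product midnolin carries proteins to the proteasome in mammals, was -1.75 (adjusted p = 0.0211) and was lost in some settings. Its values were 331, 489 and 495 at 9 dpf, against 2131, 694 and 2077 at 5 dpf.

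**Figure D2:**
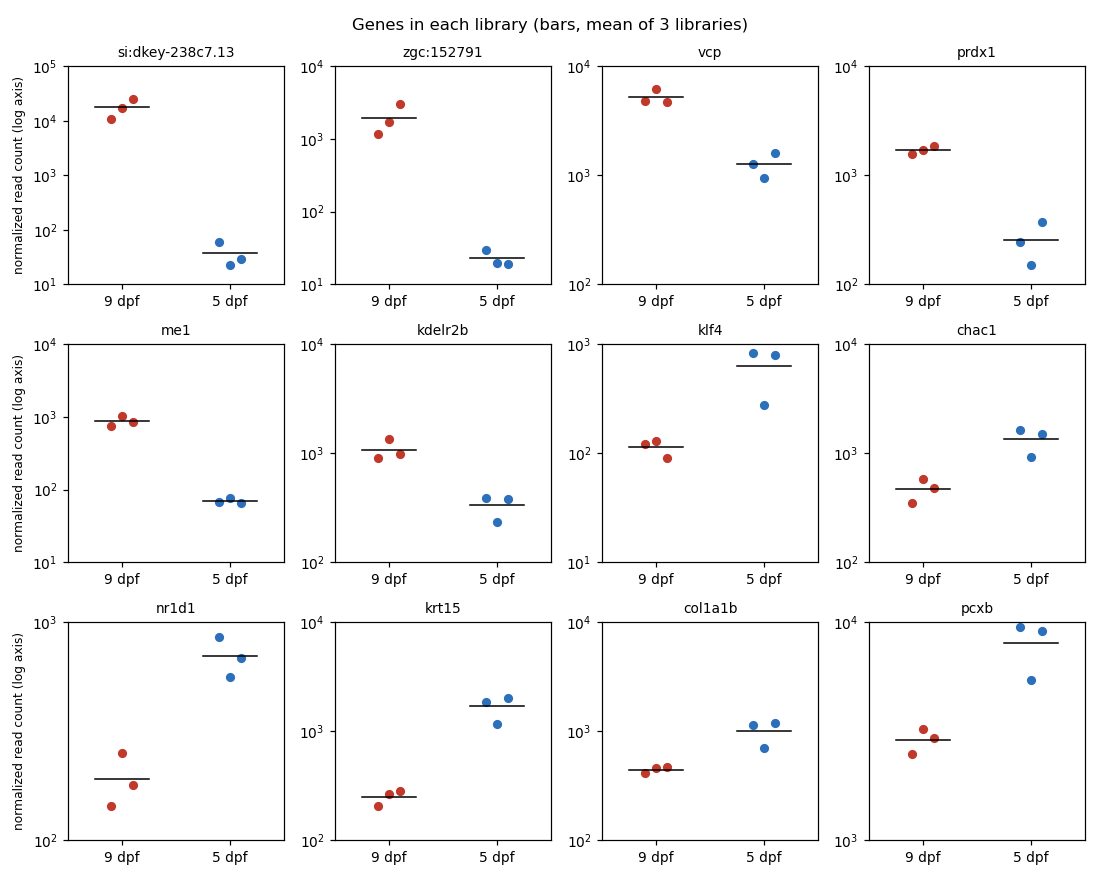
Normalized read count (log axis) of 12 genes in each library, 9 dpf in red and 5 dpf in blue, with a bar at the mean of 3 libraries. In each panel the 3 points of an age lie apart from those of the other; si:dkey-238c7.13 runs from 10651 to 25175 at 9 dpf, against 22.4 to 60.6 at 5 dpf.

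Proteasome genes rose almost without exception. Of 55 tested, 51 were higher, 48 of them in every setting, and 0 were lower in limma, 0 at an unadjusted p under 0.05 and 0 in edgeR or DESeq2. Their median log2 difference was 1.46, and it was 1.19 after quantile scaling. In 52 of the 55 every 9 dpf library lay above every 5 dpf library, as in 20.5% of all tested genes. Summed over the family, normalized reads were 32154, 41874 and 33690 at 9 dpf, against 12991, 10185 and 16061 at 5 dpf. As a share of each library this was 0.318%, 0.298% and 0.293% at 9 dpf, against 0.135%, 0.156% and 0.161% at 5 dpf, so the ages stood apart on either scale. Within the ages, 5dpf_2 was the lowest of its group in 45 genes and 9dpf_2 the highest of its group in 48. Without 9dpf_2 the count was 49.

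The core particle is a stack of rings in which the alpha subunits gate the entrance and the beta subunits carry the active sites. All 9 alpha subunit genes rose, by 1.06 to 1.84 on the log2 scale, and all 7 constitutive beta subunit genes rose, by 1.22 to 1.69. psmb5, which carries the chymotrypsin-like site, had 760, 985 and 845 at 9 dpf, against 297, 187 and 339 at 5 dpf (log2 1.69, SE 0.23, adjusted p = 4.05e-05). psmb6, with the caspase-like site, rose by 1.32, and psmb7, with the trypsin-like site, by 1.22. None of the 3 active-site genes overlapped between ages. psma8, known in mammals as the alpha subunit of the testis proteasome, rose by 1.61 with 1123, 1436 and 1269 at 9 dpf, against 443, 298 and 546 at 5 dpf.

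Among the 5 beta genes of the immune and thymic forms, 3 rose. psmb8a had 34.5, 39.2 and 36.5 at 9 dpf, against 11.6, 11.2 and 11.9 at 5 dpf (log2 1.58, SE 0.31, adjusted p = 0.00123), and psmb12 rose by 1.61. psmb9a rose by 1.29 (adjusted p = 0.0190), a call that did not hold. The gene named psmb10 in the table and psmb13a in the reference did not pass (0.99, adjusted p = 0.0770), nor did psmb11b (-0.62, adjusted p = 0.171). Both subunits of the activator that caps the core particle in immune cells rose. psme2 had 342, 436 and 346 at 9 dpf, against 51.6, 65.3 and 63.0 at 5 dpf (log2 2.62, SE 0.19, adjusted p = 9.59e-09), the largest rise of the family. psme1 had 482, 526 and 501, against 165, 110 and 160 (log2 1.81, SE 0.20, adjusted p = 3.83e-06). psme3, the nuclear activator, rose by 1.2 and psme4b, an activator linked in mammals to histone breakdown, by 1.08, whereas its paralog psme4a did not pass (-0.40, adjusted p = 0.218).

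The regulatory particle recognises ubiquitin and unfolds the substrate. All 7 of its ATPase genes rose, by 1.17 to 1.91, and all 15 of its other subunit and chaperone genes rose, by 0.84 to 2.08. psmd8, a subunit of its lid, had 775, 983 and 809 at 9 dpf, against 221, 157 and 231 at 5 dpf (log2 2.08, SE 0.20, adjusted p = 5.04e-07). The lid subunit genes psmd12 and psmd11b rose by 1.98 and 1.94. psmd14, the deubiquitinase that strips the tag before entry, had 779, 1099 and 817, against 258, 207 and 348 (log2 1.74, SE 0.23, adjusted p = 2.34e-05). Values of these subunits lay higher in every 9 dpf library than in any 5 dpf library. Of the assembly factors, pomp, which matures the core particle, rose by 1.46 (adjusted p = 0.000151). psmg2 rose by 0.80 (adjusted p = 0.00818), a call that did not hold, and psmg3 did not pass (0.20, adjusted p = 0.535).

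**Figure D3:**
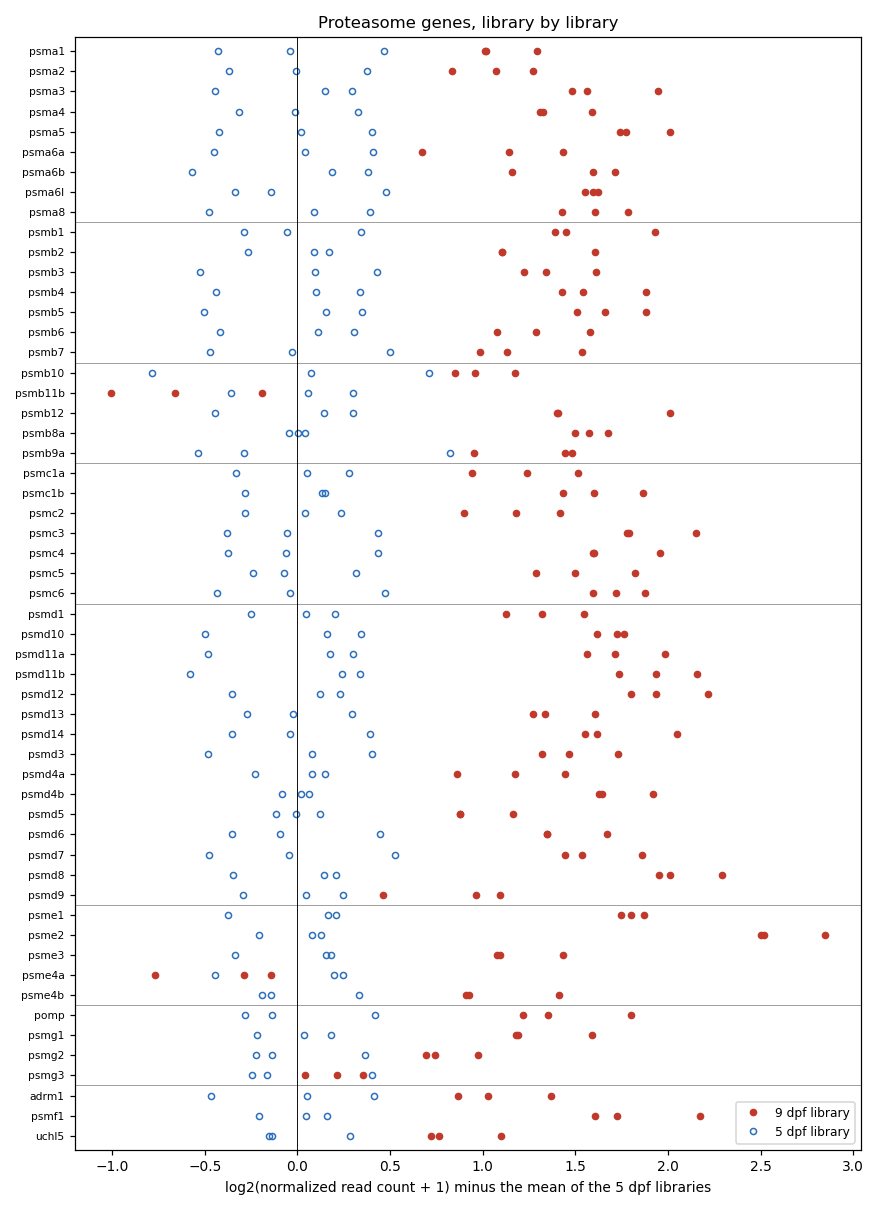
Values of 55 proteasome genes in each 9 dpf library (filled red) and each 5 dpf library (open blue), as log2(normalized read count + 1) minus the mean of the 5 dpf libraries of that gene; lines part the alpha ring, beta ring, immune and thymic beta, ATPase, other regulatory, activator, assembly and remaining genes. Red points lie to the right of all blue points in 52 genes. Over all tested genes the values lay so in 20.5%.

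Partners of the proteasome moved with it in part. vcp, the ATPase that pulls ubiquitin-tagged proteins out of membranes and complexes, had 4797, 6263 and 4727 at 9 dpf, against 1277, 955 and 1619 at 5 dpf (log2 2.06, SE 0.26, adjusted p = 1.77e-05). Its cofactors ufd1l and nploc4 rose by 1.39 and 1.15 (adjusted p = 5.44e-05 and 0.000217). ubb, a polyubiquitin gene, had 1062, 1401 and 1628 at 9 dpf, against 463, 253 and 441 at 5 dpf (log2 1.85, adjusted p = 5.34e-05). uba1, the enzyme that activates ubiquitin, rose by 1.4 and usp14, a deubiquitinase bound to the proteasome, by 1.49. Of 47 genes of ubiquitin and its activating and conjugating enzymes, 19 rose, 12 of them in every setting, with a median of 0.49. Of 57 deubiquitinase genes 15 rose and 3 fell, and 9 rose without 5dpf_2 and 8 without 9dpf_2. Quantile scaling gave 11 rises and 8 falls, and cyclic loess 11 and 7. All 7 genes of the COP9 signalosome, which removes the ubiquitin-like tag Nedd8 from ubiquitin ligases, rose with a median of 0.84, but only 3 were called without 9dpf_2. The lists in this paragraph were drawn up after values had been seen.

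Genes linked to the control of the proteasome gave mixed results. nfe2l1a, one of a pair of genes for the transcription factor that restores proteasome gene expression when the proteasome is inhibited in mammals, had 573, 526 and 580 at 9 dpf, against 348, 236 and 553 at 5 dpf (log2 0.65, adjusted p = 0.0790), and the ages overlapped. nfe2l1b had 315, 433 and 396, against 253, 221 and 259 (log2 0.63, adjusted p = 0.0201), a call that did not hold. The gene named zfand2a in the table and ZFAND2B in the reference rose by 1.58 (adjusted p = 3.51e-06) and sqstm1, the autophagy receptor for ubiquitin, by 1.56. odc1, ornithine decarboxylase, a proteasome substrate that is degraded without ubiquitin, rose by 2.04 (adjusted p = 0.00282), and oaz1a, the antizyme that delivers it, by 1.93 (adjusted p = 0.000154). hsf1, the heat shock factor, rose by 0.57 (adjusted p = 0.0449), a call that did not hold. nfe2l1a, nfe2l1b, odc1, oaz1a, ubb, uba1, usp14 and hsf1 were named after their values were seen.

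Genes of the early secretory pathway rose in large numbers, from entry into the endoplasmic reticulum to the Golgi. Of 23 genes of signal recognition, the translocon and signal peptidase 19 rose (median 0.93), and 12 were called without 9dpf_2. tram1, which helps chains enter the membrane, had 1118, 1719 and 1534 at 9 dpf, against 557, 363 and 580 at 5 dpf (log2 1.55, adjusted p = 0.000137). The signal peptidase genes spcs2 and sec11a rose by 1.4 each. Of 41 genes of N-glycan attachment 27 rose and 1 fell (median 0.74), with 16 higher without 9dpf_2. pmm2, which makes the mannose donor, rose by 1.26, and the oligosaccharyltransferase subunit genes ddost, dad1 and ostc by 1.21 to 1.25. All 7 of these rises held.

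Of 54 chaperone and disulfide isomerase genes of the endoplasmic reticulum 32 rose and 1 fell (median 0.78), 23 of the rises in every setting. Their share of normalized reads was 0.495%, 0.514% and 0.526% at 9 dpf, against 0.296%, 0.297% and 0.275% at 5 dpf. calr3b, a calreticulin, had 2747, 4628 and 4001 at 9 dpf, against 1031, 609 and 871 at 5 dpf (log2 2.18, SE 0.26, adjusted p = 9.07e-06). agr2, the disulfide isomerase that goblet cells need to make mucin, rose by 2.36 and dnajb11, a partner of the main chaperone of the compartment, by 2.11. The genes of the unfolded protein response did not move as one. Of 37 stress and degradation genes 16 rose and 2 fell, with 10 higher without 9dpf_2. atf6, a sensor of unfolded proteins, had 543, 730 and 641 at 9 dpf, against 299, 286 and 284 at 5 dpf (log2 1.13, adjusted p = 0.000333). xbp1, a transcription factor of the same response, differed by 0.17 (adjusted p = 0.692), but by -0.36 under quantile and -0.34 under cyclic loess scaling, where it passed. chac1, a target of the response that splits glutathione, had 348, 579 and 483 at 9 dpf, against 1622, 918 and 1509 at 5 dpf (log2 -1.51, SE 0.25, adjusted p = 0.000247). herpud1, which helps degrade misfolded proteins, rose by 1.48, so chac1 fell while herpud1 and atf6 rose, all 3 in every setting. atf6 and xbp1 were named after their values were seen.

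Vesicle coats rose as well. Of 50 genes of the COPII coat and its cargo receptors 30 rose (median 0.70), with 19 called without 5dpf_2, 16 without 9dpf_2 and 19 without 9dpf_3. lman1, a lectin that carries glycoproteins forward, had 486, 764 and 613 at 9 dpf, against 258, 139 and 180 at 5 dpf (log2 1.71, adjusted p = 1.91e-05). kdelr2a and kdelr2b, receptors that return escaped chaperones, rose by 1.5 and 1.69. sar1b, whose loss in humans blocks chylomicron export, rose by 1.3, as did mtp, the transfer protein that loads fat onto apolipoprotein B, by 1.25. Of 60 COPI and Golgi structure genes 27 rose (median 0.55), with 16 called without 5dpf_2 and 14 without 9dpf_2. The COPI subunit genes copb1, cope, copg2 and copa rose by 1.25 to 1.44. Of 140 Golgi glycosyltransferase genes 12 rose and 5 fell (median -0.16), or 8.57% and 3.57%, against 12.6% and 4.28% over all genes. The counts turned to more falls than rises, 12 and 14, under quantile scaling and 13 and 15 under cyclic loess. After TMM scaling they were 11 and 11. Rises numbered 7 without 5dpf_2 and 5 without 9dpf_2, and falls 1 without 9dpf_2 and 2 without any of 5dpf_1, 5dpf_2, 5dpf_3 or 9dpf_3. Nucleotide sugar carriers, which supply those enzymes, rose in 10 of 27 and fell in 1, led by slc35e3 at 1.71 and slc35b4 at 1.67.

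**Figure D4:**
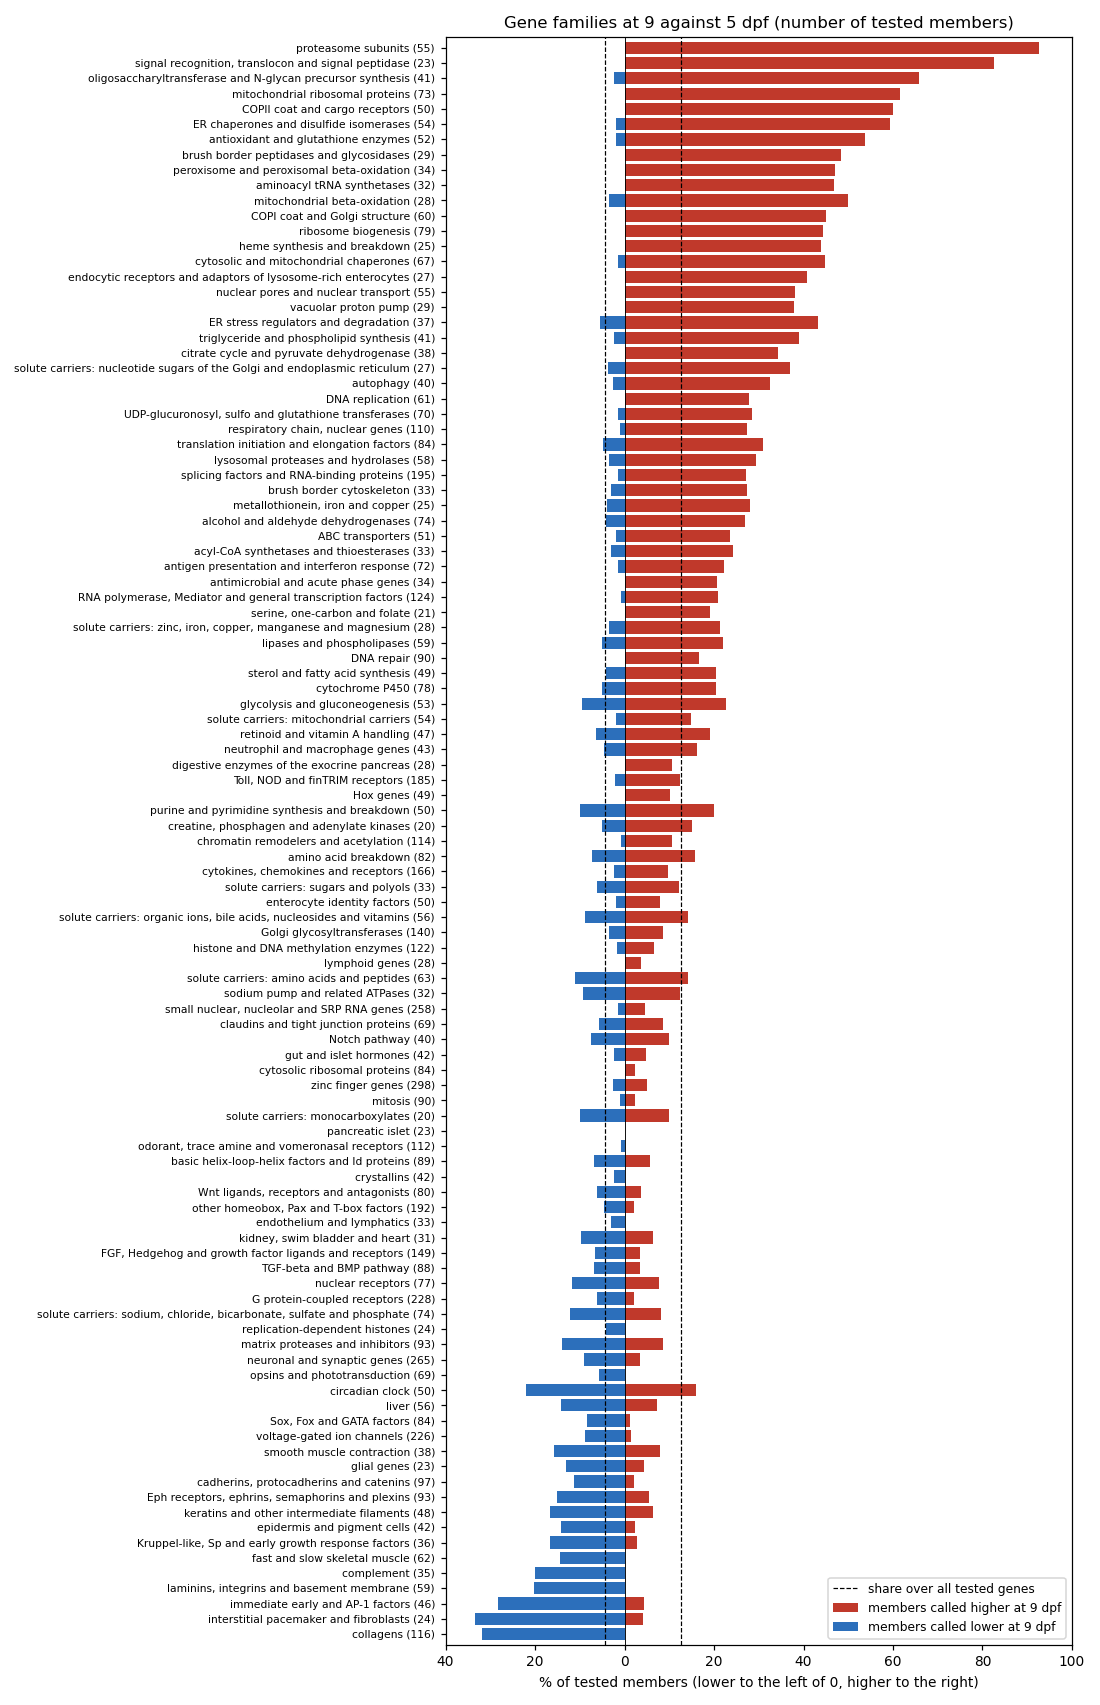
Share of tested members called higher (red, to the right of 0) and lower (blue, to the left) at 9 against 5 dpf for gene families with at least 20 tested members; dashed lines give the shares over all tested genes, 12.6% and 4.28%. Proteasome genes stand at the top, several early secretory families and mitochondrial ribosomal protein genes come near them, and collagens stand at the bottom. Golgi glycosyltransferase genes do not stand near the top. Counts move with scaling and with single libraries as the text states.

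Ribosomal protein genes of the mitochondrion rose, while few of the cytosol were called. Of 73 mitochondrial ribosomal protein genes 45 rose (median 0.72, and 0.60 after quantile scaling), with 28 called without 5dpf_2 and 20 without 9dpf_2. mrpl10 had 178, 207 and 152 at 9 dpf, against 55.5, 61.6 and 82.6 at 5 dpf (log2 1.42, adjusted p = 5.40e-05), with no overlap, and mrpl1 rose by 1.31. Of 84 genes in the list of cytosolic ribosomal proteins 2 rose (median 0.33), but 3 rose and 47 fell after quantile scaling and 3 and 37 after cyclic loess. One of the pair, named rpl37 in the table, carries another gene's name in the reference, COA1. rpl3, a core protein of the large subunit named here as an example after its values were seen, had 15598, 23400 and 18512 at 9 dpf, against 19327, 13634 and 22433 at 5 dpf, and the ages overlapped; it was called lower under quantile and cyclic loess scaling. As a share of each library the cytosolic ribosomal genes came to 4.85%, 5.42% and 5.10% at 9 dpf, against 5.67%, 5.34% and 6.25% at 5 dpf.

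Other steps of protein synthesis gave mostly rises. Of 79 ribosome biogenesis genes 35 rose, though the count was 23 without 5dpf_1, 17 without 5dpf_2, 11 without 9dpf_2 and 22 without 9dpf_3. npm1a, a nucleolar chaperone, rose by 1.49. Of 32 aminoacyl tRNA synthetase genes 15 rose, with 9 called without 9dpf_2, and nars, which charges the tRNA of asparagine, had 1383, 1962 and 1703 at 9 dpf, against 492, 433 and 511 at 5 dpf (log2 1.80, adjusted p = 1.13e-05). Genes of mitochondrial protein import, a list drawn up after values were seen, rose in 25 of 38 (median 0.99), 18 of them in every setting. timm8b, a small chaperone of the space between the membranes, rose by 1.5 and tomm40l, related to the pore of the outer membrane, by 1.41. The mitochondrial chaperonin genes hspd1 and hspe1, which form 1 folding chamber, rose by 1.73 and 1.80.

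Energy genes rose in part. Of 110 nuclear genes of the respiratory chain 30 rose and 1 fell (median 0.56), with 11 higher without 5dpf_2 and 47 without 5dpf_3. Leaving out 9dpf_2 left 6, and leaving out 9dpf_3 left 15. cycsb, a cytochrome c gene, had 2395, 3419 and 2962 at 9 dpf, against 1013, 492 and 1055 at 5 dpf (log2 1.84, adjusted p = 0.000191). Of the 13 protein genes of the mitochondrial genome (median 0.46) 0 passed in limma, 4 had an unadjusted p under 0.05, and 0 passed in edgeR and 3 in DESeq2. Their median was -0.19 under quantile and -0.11 under cyclic loess scaling, with 1 gene called lower in each. As a share of each library they overlapped, at 3.34%, 2.98% and 2.87% at 9 dpf, against 3.31%, 4.07% and 3.08% at 5 dpf. Of 28 genes of mitochondrial fatty acid breakdown 14 rose and 1 fell, with 3 higher without 9dpf_2 and 9 without 9dpf_3. The alpha and beta subunit genes of the trifunctional enzyme, hadhaa and hadhb, rose by 1.95 and 1.67, and cpt1ab, which admits fatty acids to the mitochondrion, by 1.62. The uncoupling protein genes ucp2 and ucp3 rose by 1.80 and 1.93 (adjusted p = 0.000109 and 4.88e-07), with ucp3 at 259, 304 and 296 in 9 dpf libraries, against 67.1, 67.2 and 90.3 in 5 dpf libraries. Glycolysis and gluconeogenesis genes were divided, with 12 higher and 5 lower of 53 (11 and 12 under quantile scaling, 12 and 12 under cyclic loess). The falls numbered 2 without 5dpf_1, 5dpf_3 or 9dpf_2 and 3 without 9dpf_3. Genes for the enzymes that set the level of a sugar phosphate signal that drives glycolysis went different ways, as pfkfb3 and pfkfb4a rose by 1.22 and 1.63, and pfkfb2b fell by 1.37. pkma, a pyruvate kinase, rose by 1.34 while pcxb fell.

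Antioxidant genes rose in 28 of 52 and fell in 1 (median 0.71), with 16 higher without 9dpf_2. After prdx1 the largest were gpx1b, a glutathione peroxidase, at 1.93, gsto1, a glutathione transferase, at 1.73 and prdx6 at 1.46. me1, whose enzyme supplies NADPH, had 760, 1024 and 850 at 9 dpf, against 67.1, 76.5 and 65.6 at 5 dpf. Glutathione reductase gsr rose by 1.38, and slc7a11, which imports cystine for glutathione synthesis, by 0.94. ugdh, which makes the sugar donor for glucuronidation, had 2191, 2435 and 2531 at 9 dpf, against 617, 365 and 662 at 5 dpf (log2 2.17, adjusted p = 2.99e-06) and was named after its values were seen. Of 70 conjugating transferase genes 20 rose and 1 fell, or 28.6% and 1.43%. Of 78 cytochrome P450 genes 16 rose and 4 fell, or 20.5% and 5.13%, against 12.6% and 4.28% over all genes. Under quantile scaling 18 conjugating genes rose and 7 fell, with 13 and 7 among the P450 genes; cyclic loess gave 20 and 7 and, for P450, 15 and 6. The P450 falls came to 1 without 5dpf_2, 9dpf_2 or 9dpf_3 and to 2 without 5dpf_3. cyp2k18, cyp2k20 and cyp2k19, which are close relatives whose reads may be shared, rose by 2.72, 1.82 and 1.42.

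Lipid genes rose at several steps, and few fell. scarb1, a receptor for cholesterol and carotenoids, had 4573, 6385 and 5400 at 9 dpf, against 1111, 681 and 1485 at 5 dpf (log2 2.38, SE 0.28, adjusted p = 6.58e-06). abcg8, the partner of abcg5 in the sterol pump, rose by 2.28, and the 2 genes had no overlap between ages. pla2g12a, a secreted phospholipase, rose by 2.21 and abhd6a, which splits monoacylglycerol, by 1.69. zgc:123275, named pla2g3 in the reference and chosen after its values were seen, had 295, 388 and 307 at 9 dpf, against 30.96, 38.2 and 15.3 at 5 dpf (log2 3.59, adjusted p = 3.72e-06). acsl4a and acsl1b, which activate long-chain fatty acids, rose by 1.69 and 1.38. Among the elongases and desaturases, elovl6 rose by 2.03, elovl5 by 1.34 and the gene named fads2 in the table (FADS3 in the reference) by 1.99. sqlea, squalene epoxidase, an early committed step of cholesterol synthesis, fell by 0.96 (adjusted p = 0.00793). In the list of 49 sterol and fatty acid synthesis genes 10 rose and 2 fell, but 8 and 11 under quantile scaling and 9 and 11 under cyclic loess, and the rises numbered 6 without 5dpf_2 and 5 without 9dpf_2 or 9dpf_3. Of 19 apolipoprotein genes 9 rose and 2 fell (median 1.62), 8 of the rises and 1 of the falls in every setting. They held 7.53%, 7.97% and 8.01% of normalized reads at 9 dpf, against 3.65%, 3.67% and 3.44% at 5 dpf, so the ages stood apart. apoeb, an apolipoprotein E, had 33431, 48423 and 39413 at 9 dpf, against 6285, 3905 and 5354 at 5 dpf (log2 2.97, SE 0.31, adjusted p = 1.63e-06). apodb, an apolipoprotein D, went the other way (log2 -1.13, adjusted p = 0.00105).

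Transporter genes changed in both directions. slc5a1, the sodium-coupled glucose carrier of the brush border, had 8717, 13206 and 9760 at 9 dpf, against 2762, 1704 and 3149 at 5 dpf (log2 2.08, SE 0.31, adjusted p = 0.000106). slc2a1b, a glucose carrier found in many tissues, had 94.4, 117 and 98.0, against 228, 123 and 237.6 (log2 -0.87, adjusted p = 0.00737). slc34a2b, a phosphate carrier, rose by 1.47 and slc23a1, a vitamin C carrier, by 1.74. slc6a13, which the reference names slc6a22.1, rose by 1.73, and the taurine carrier gene slc6a6b by 1.33. slc38a4, a carrier of neutral and cationic amino acids, fell by 1.34 and slc26a5, of the sulfate carrier family, by 1.1. Of 63 amino acid and peptide carriers 9 rose and 7 fell, or 14.3% and 11.1%, against 12.6% and 4.28% over all genes. The carriers gave 7 rises and 12 falls under quantile scaling and under cyclic loess. Their rises numbered 5 without 5dpf_1 or 5dpf_2, 1 without 9dpf_2 and 3 without 9dpf_3, and their falls 3 without 5dpf_3, 1 without 9dpf_2 and 4 without 9dpf_3. The sodium pump gene atp1a1a.1 rose by 1.26, and atp2a2b, a calcium pump of the endoplasmic reticulum, by 1.61.

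Digestive genes of the enterocyte rose in part, and those of the pancreas were called higher in a share near that of all tested genes. Of 29 brush border peptidase and glycosidase genes 14 rose, with 9 called without 5dpf_2 or 9dpf_3 and 8 without 9dpf_2. chia.1, an acidic chitinase, had 12307, 13002 and 14483 at 9 dpf, against 3705, 2483 and 3160 at 5 dpf (log2 2.11, adjusted p = 0.000208). Its relative chia.2 did not pass (0.90, adjusted p = 0.0919). mep1a.1, a meprin protease, and ggt1a, which splits glutathione outside the cell, each rose by 1.65. Of 28 exocrine pancreas enzyme genes 3 rose, or 10.7%, against 12.6% over all genes. Of the 3 only cuzd1.1 held (log2 1.63). Summed values of the pancreas list were 11358, 18448 and 12900 at 9 dpf, against 8851, 5719 and 17785 at 5 dpf, and overlapped. In the lysosome, ctsla, a cathepsin, rose by 1.59, and the lipid hydrolase genes asah1a and smpd1 by 1.49 and 1.42. Of 58 lysosomal hydrolase genes 17 rose and 2 fell, with 9 to 11 rises when 5dpf_1, 5dpf_2, 9dpf_2 or 9dpf_3 was left out, and 13 rose and 5 fell under cyclic loess scaling.

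Heme, retinoid and metal genes rose in part. In heme synthesis uros and urod, neighbouring steps of the pathway, rose by 1.24 and 1.17, and fech, which inserts the iron, by 1.165. hebp2, a heme-binding protein, rose by 1.54 and flvcr2a, a transporter of the choline and heme carrier family, by 1.24. Of 25 heme genes 11 rose, with 6 called without 5dpf_2 or 9dpf_3. bco1, which splits beta-carotene into retinal, had 4413, 6323 and 4736 at 9 dpf, against 2585, 1343 and 2437 at 5 dpf (log2 1.32, adjusted p = 0.00282). stra6l, a retinol carrier, rose by 1.55 and rdh10b, a retinol dehydrogenase, by 1.44. Of 47 retinoid and vitamin A genes 9 rose and 3 fell (median 0.10), or 19.1% and 6.38%, with 5 rises without 5dpf_2 and 0 falls without 9dpf_3. Among 25 metallothionein, iron and copper genes 7 rose and 1 fell (median 0.44), with 3 rises without 5dpf_2 and 0 falls without 9dpf_1. tspo, a cholesterol-binding protein of the outer mitochondrial membrane named after its values were seen, rose by 2.04 (adjusted p = 6.58e-06). In amino acid breakdown, 13 of 82 genes rose and 6 fell, or 15.9% and 7.32%, against 12.6% and 4.28% over all genes. The family had more falls, 25, than rises, 12 and 11, under quantile and cyclic loess scaling. Its rises numbered 8 without 5dpf_2 or 9dpf_3 and 7 without 9dpf_2, and its falls 10 without 5dpf_2 and 3 without 9dpf_2. gls2b, a glutaminase, and arg2, an arginase, rose by 1.45 and 1.41, and uroc1, which degrades histidine, fell by 1.33.

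Families of nuclear genes were mixed. Of 195 splicing and RNA-binding genes 53 rose and 3 fell (median 0.36), with 30 higher without 5dpf_2, 21 without 9dpf_2 and 27 without 9dpf_3. The falls were 17 under both quantile and cyclic loess scaling, beside 49 and 54 rises. snrpg, a core protein of the spliceosome, rose by 1.47. Of 61 DNA replication genes 17 rose, with 8 called without 5dpf_2 and 3 without 9dpf_2. The replication licensing factor gene cdt1 and that of its inhibitor, gmnn, rose by 1.07 and 1.18. Of 90 mitosis genes 2 rose and 1 fell (median -0.15), but 2 rose and 10 fell under quantile scaling and 2 and 9 under cyclic loess. cdca7a, linked to DNA methylation upkeep, rose by 1.22. dnmt3ab, which sets new DNA methylation, had 282, 310 and 293 at 9 dpf, against 716, 528 and 738 at 5 dpf (log2 -1.15, adjusted p = 0.000267). kdm6bb, a demethylase of the Polycomb mark on histone H3, fell by 0.76 and kdm1a, which removes another methyl mark, rose by 0.92. Of 122 histone and DNA methylation genes 8 rose and 2 fell, but 7 and 22 under quantile scaling and 7 and 23 under cyclic loess. The rises numbered 5 without 5dpf_1, 5dpf_2 or 9dpf_3 and 1 without 9dpf_2.

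Several stress-induced transcription factors fell. Of 46 immediate early and AP-1 genes 2 rose and 13 fell (median -0.36), with 7 lower without 5dpf_1 and 8 without 9dpf_2. klf2a, a Kruppel-like factor, had 151, 183 and 192 at 9 dpf, against 486, 395 and 468 at 5 dpf (log2 -1.36, adjusted p = 3.05e-05). fosb, a partner of Jun proteins, had 54.8, 44.2 and 41.7, against 163, 85.8 and 144 (log2 -1.42, adjusted p = 0.000217). nr4a1, a nuclear receptor induced by many stimuli, fell by 1.23 and klf6a, another Kruppel-like factor, by 1.11. These 4 genes showed no overlap between ages, as was so for 15.7% of all tested genes in this direction. klf4, which in mammals marks goblet and differentiated gut cells, had 121, 130 and 90.7 at 9 dpf, against 824, 278 and 796 at 5 dpf (log2 -2.33, SE 0.43, adjusted p = 0.00907). In other families, mnx2b, a homeobox gene, rose by 1.89 and the posterior homeobox gene hoxa9a by 1.14. The homeobox genes onecut2 and pbx1a fell by 1.04 and 0.80.

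Clock genes changed in both directions. nr1d1, the repressor Rev-erb alpha, had 144, 250 and 179 at 9 dpf, against 855, 560 and 684 at 5 dpf (log2 -1.88, SE 0.21, adjusted p = 2.97e-06). arntl1b, a Bmal1 activator that nr1d1 represses in mammals, had 421, 440 and 400 at 9 dpf, against 192, 167 and 278 at 5 dpf (log2 1.02, adjusted p = 0.00126). Both differed without overlap, in opposite directions. ciarta and ciartb, which repress the clock, fell by 1.11 and 1.53, and per1a, a period gene named after its values were seen, by 1.06. The gene named cry1bb in the table (cry3b in the reference), cry5 and cry-dash, of the cryptochrome and photolyase family, rose by 1.21, 0.83 and 0.95. Of 50 genes 8 rose and 11 fell. Rises numbered 5 without 5dpf_1 and 4 without 9dpf_2 or 9dpf_3, and falls 7 without 5dpf_1. The labels give no hour of dissection for the pools.

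Growth factor and guidance genes fell more often than they rose, in numbers that depended on scaling. Of 149 genes of FGF, Hedgehog and other growth factors 5 rose and 10 fell (median -0.32). Leaving out 5dpf_1 or 5dpf_2 left 3 rises, and leaving out 9dpf_2 or 9dpf_3 left 2. The falls numbered 3 without 5dpf_1 or 9dpf_2 and 4 without 9dpf_3. After TMM scaling 3 rose and 20 fell, after quantile scaling 3 and 27 and after cyclic loess 3 and 29. Of 93 genes of Eph receptors, ephrins, semaphorins and plexins, which guide cells and axons, 5 rose and 14 fell (median -0.32), 1 of the falls in every setting. Their falls numbered 26 after TMM, 33 after quantile and 31 after cyclic loess scaling, but 9 without 5dpf_1 or 5dpf_3, 4 without 9dpf_2 and 6 without 9dpf_3. Their rises were 3 without 9dpf_2. spry4, which FGF signals induce and which then dampens them, had 157, 207 and 215 at 9 dpf, against 479, 336 and 412 at 5 dpf (log2 -1.08, adjusted p = 0.00133). nrp1a, a receptor for semaphorins and vascular growth factor, had 476, 590 and 477, against 1191, 974 and 1111 (log2 -1.09, adjusted p = 0.00102). bmp5 fell by 0.9998 and lft1, an inhibitor of Nodal signals, by 1.25. The Dact genes, which act inside Wnt signalling, split, with dact2 higher by 1.35 and dact1 lower by 0.99. smad3a, which carries the signal of TGF-beta, rose by 0.82, and stat3, which carries those of cytokines such as interleukins, by 1.18. sstr5, a somatostatin receptor, fell by 0.87 and slc6a4a, the serotonin carrier, by 0.84. gcga and ins, the glucagon and insulin genes, did not pass, with gcga at 142 to 173 in 9 dpf libraries, against 141 to 168 in 5 dpf libraries.

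Several interferon-linked genes were highest in 9dpf_3. The ifi27 family, interferon-inducible genes of the mitochondrial membrane in mammals, held the second largest rise. zgc:152791, named ifi27.2 in the reference, had 1188, 1697 and 3020 at 9 dpf, against 29.7, 19.6 and 18.7 at 5 dpf (log2 6.30, SE 0.61, adjusted p = 0.000990). si:dkey-188i13.6 (ifi27.3) had 160, 285 and 455, against 18.1, 20.5 and 7.67 (log2 4.18, adjusted p = 0.00360), and si:dkey-188i13.8 (ifi27.5) rose by 2.34. These 3 calls held. Rises of si:dkey-188i13.9 (ifi27.6) by 5.11, si:dkey-188i13.7 (ifi27.4) by 2.78 and si:dkey-188i13.11 (ifi27.8) by 0.90 passed but were lost in some settings. The remaining 2, zgc:123068 (ifi27.1) and si:dkey-188i13.10 (ifi27.7), did not pass. The 8 genes are near copies whose reads may be shared, and they were grouped after their values were seen.

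Among other interferon genes, isg15, a ubiquitin-like tag induced by interferon, had 81.2, 158 and 1486 at 9 dpf, against 39.99, 15.9 and 30.7 at 5 dpf, and did not pass (log2 3.27, adjusted p = 0.160). rsad2, an antiviral enzyme, had 105, 97.1 and 1220, against 33.5, 23.3 and 22.997 (log2 3.10, adjusted p = 0.172). stat1b, which carries the interferon signal, had 608, 510 and 2245 at 9 dpf, against 144, 83.0 and 101 at 5 dpf, and its call (log2 3.04, adjusted p = 0.0366) was lost in some settings. In all 3 genes 9dpf_3 lay far above 9dpf_1 and 9dpf_2, which in turn lay above each 5 dpf library. stat2 held, with 3205, 3611 and 5972 at 9 dpf, against 1395, 1035 and 1366 at 5 dpf (log2 1.71, adjusted p = 0.000366). Of 72 genes of antigen presentation and the interferon response 16 rose and 1 fell (median 0.65), but 8 rose without 9dpf_3. The list shares 7 genes with the proteasome list, 6 of them called. b2m, the light chain of class I molecules, did not share the pattern, with 102, 95.2 and 117 at 9 dpf, against 19.4, 11.2 and 17.04 at 5 dpf (log2 2.67, SE 0.34, adjusted p = 2.95e-05). isg15 and rsad2 were named after their values were seen.

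In the remaining immune genes most were not called. Of 185 Toll, NOD and finTRIM genes 23 rose and 4 fell, or 12.4% and 2.16%, against 12.6% and 4.28% over all genes. Rises numbered 14 without 5dpf_1, 12 without 9dpf_2 and 11 without 9dpf_3, and falls 7 without 9dpf_1, 1 without 9dpf_2 and 11 under quantile and cyclic loess scaling. ftr72, a fish TRIM gene, rose by 2.08 and casp3b, an executioner caspase, by 1.53. tlr21, a receptor for microbial DNA, had 40.6, 40.2 and 51.1 at 9 dpf, against 111, 92.3 and 122 at 5 dpf (log2 -1.28, adjusted p = 0.000137). lect2l, a chemotactic protein, rose by 2.12 and mmp9, a matrix protease of leukocytes, by 0.81, whereas ncf4, part of the phagocyte oxidase, fell by 0.95. Of 35 complement genes 7 fell (median -0.50), and 7 of the 35 are also in the liver list. c9, which forms the pore, had 49.7, 43.2 and 53.2 at 9 dpf, against 79.99, 117 and 171 at 5 dpf (log2 -1.25, adjusted p = 0.000636). c5 had 130, 132 and 129, against 254, 256 and 273 (log2 -0.99, adjusted p = 0.00126), with no overlap.

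Many collagen genes fell, and calls in smooth muscle went both ways. Of 116 collagen and associated matrix genes 37 fell (median -0.46), 13 of the falls in every setting. The count was 20 without 5dpf_1, 23 without 9dpf_2 and 18 without 9dpf_3. Their share of normalized reads was 0.225%, 0.163% and 0.190% at 9 dpf, against 0.420%, 0.461% and 0.430% at 5 dpf. col1a1b, a chain of type I collagen, had 411, 457 and 466 at 9 dpf, against 1137, 705 and 1194 at 5 dpf (log2 -1.15, adjusted p = 0.00105). The other chains col1a1a and col1a2 fell by 0.95 and 0.94. lum, lumican, which spaces collagen fibrils, fell by 1.59 and postnb, a periostin, by 1.39. Of 59 laminin, integrin and basement membrane genes 12 fell, with 5 lower without 5dpf_1, 7 without 5dpf_3, 6 without 9dpf_2 and 3 without 9dpf_3, but 18 after TMM, 29 after quantile and 28 after cyclic loess scaling. itga4, an integrin that binds fibronectin, fell by 1.02. In smooth muscle, 6 of 38 genes fell and 3 rose. Falls numbered 3 without 5dpf_1, 5dpf_3 or 9dpf_3 and 12 without 5dpf_2, and the rises 1 without 9dpf_2. After TMM scaling 3 rose and 10 fell, and after quantile or cyclic loess scaling 2 rose and 24 fell. Summed values of the list were 37458 to 51467 at 9 dpf, against 27009 to 45055 at 5 dpf, and overlapped. The list's share of each library was 0.370%, 0.366% and 0.349% at 9 dpf, against 0.450%, 0.413% and 0.451% at 5 dpf, with no overlap. csrp1b, a LIM domain protein of muscle, fell by 1.25, smtnl, of the smoothelin family, by 0.99 and vcla, a vinculin, by 0.94, while tagln2, a transgelin, rose by 1.15.

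At the cell surface, cdh17, the cadherin of gut epithelium, had 10433, 13949 and 10538 at 9 dpf, against 5740, 3572 and 5055 at 5 dpf (log2 1.296, adjusted p = 0.00322). oclna, an occludin of the tight junction, rose by 1.198 and cldn7b, a claudin, by 0.94. Their families did not rise as a whole. Of 97 cadherin, protocadherin and catenin genes 2 rose and 11 fell (median -0.36). The falls were 22 after TMM and 28 after quantile scaling, but 3 without 9dpf_2. Of 69 claudin and tight junction genes 6 rose and 4 fell, or 8.70% and 5.80%, against 12.6% and 4.28% over all genes. The counts were 5 and 16 under quantile scaling, and 2 rose without 9dpf_2. cldn15la, whose regulatory sequence drives the transgene, did not pass (0.32, adjusted p = 0.503; -0.36 and called lower under quantile scaling), with 14931, 20595 and 15972 at 9 dpf, against 16590, 9486 and 15929 at 5 dpf. Of 265 neuronal and synaptic genes 9 rose and 24 fell (median -0.38). Rises numbered 5 without 9dpf_2, and falls 14 without 5dpf_1 or 5dpf_3 and 12 without 5dpf_2. With 9dpf_2 left out 7 fell, and with 9dpf_3 left out 8, whereas 39 fell after TMM scaling. The summed values of this list went the other way, with 27056, 25749 and 25560 at 9 dpf, against 24048, 24944 and 25187 at 5 dpf. As a share of each library they overlapped, at 0.267%, 0.183% and 0.223% at 9 dpf, against 0.251%, 0.381% and 0.252% at 5 dpf. syt8, a synaptotagmin, fell by 1.39, nrxn2b, a synaptic adhesion gene, by 0.74, and tubb4b, a tubulin, rose by 1.39.

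Marker genes of carried-over tissue, enterocytes and immune cells gave these values. The liver markers fabp10a and tfa were highest in 5dpf_3. fabp10a had 50.8, 54.9 and 60.5 at 9 dpf, against 110, 58.8 and 494 at 5 dpf, and tfa had 112, 131 and 150, against 379, 263 and 1594. Neither passed in limma. The 4 liver markers summed to 252 to 291 at 9 dpf, against 418 to 2430 at 5 dpf, and 0 of the 4 were called in limma, 1 had an unadjusted p under 0.05, and 0 were called in edgeR and 3 in DESeq2. Of 56 liver genes 4 rose and 8 fell (median -0.69). Rises numbered 2 without 9dpf_2, and falls 5 without 5dpf_3 and 4 without 9dpf_2 or 9dpf_3, but 13 after TMM scaling. The 4 skeletal muscle markers summed to 368 to 433 at 9 dpf, against 551 to 771 at 5 dpf, and 2 fell. One of them, myhz2, a fast myosin, had 61.9, 61.8 and 63.6, against 116, 116 and 147 (log2 -0.99, adjusted p = 0.00258). Of 62 genes in the list of fast and slow skeletal muscle 9 fell and 0 rose in limma (median -0.49). Falls in that list numbered 4 without 5dpf_1, but 22 after TMM scaling. Of the 5 enterocyte markers 2 rose, and their sum was 60743 to 97651 at 9 dpf, against 27297 to 50460 at 5 dpf. Of the neutrophil markers, mpx, the granule peroxidase, had 236, 146 and 184 at 9 dpf, against 56.8, 83.9 and 47.7 at 5 dpf, a call (log2 1.58, adjusted p = 0.0377) that was lost in some settings. lyz, a lysozyme, did not pass, with 10.2, 5.89 and 14.6 at 9 dpf, against 18.1, 8.39 and 18.7 at 5 dpf (log2 -0.52, adjusted p = 0.389). mpeg1.1, a macrophage gene, had 49.7 to 70.6 at 9 dpf, against 25.2 to 31.5 at 5 dpf. Of 43 neutrophil and macrophage genes 7 rose and 2 fell (median -0.10), or 16.3% and 4.65%, against 12.6% and 4.28% over all genes. Their sums overlapped. The list's share of each library was 0.0437%, 0.0360% and 0.0472% at 9 dpf, against 0.0618%, 0.0702% and 0.0569% at 5 dpf, with no overlap. No marker that the table lists was at 0 in all 6 libraries. The part of these cell types in the changes of other genes was not tested.

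**Figure D5:**
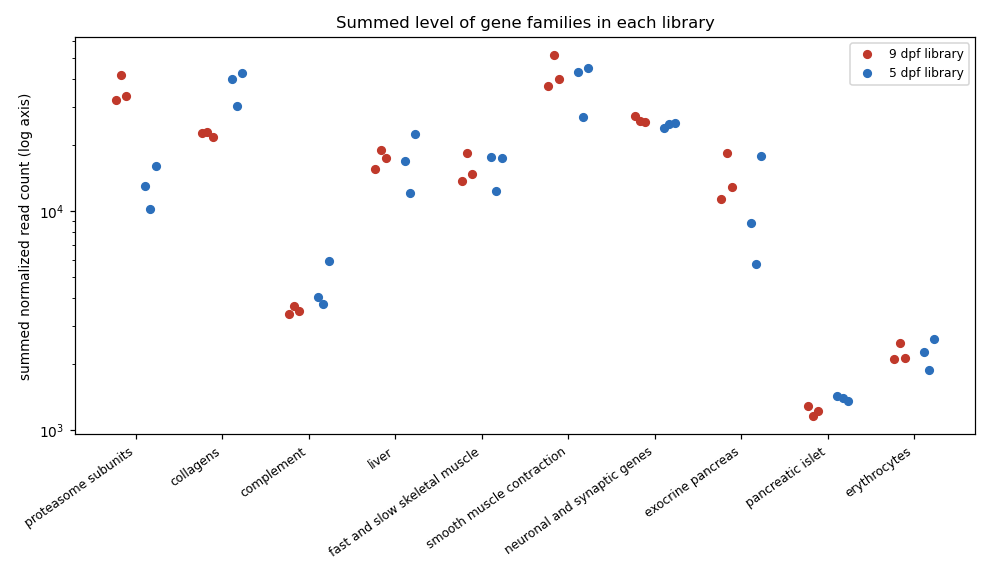
Summed normalized read count (log axis) of 10 gene families in each library, 9 dpf in red at the left of each pair and 5 dpf in blue at the right. Proteasome sums run from 32154 to 41874 at 9 dpf, against 10185 to 16061 at 5 dpf. Collagen, complement and islet sums are lower at 9 dpf with no overlap, and neuronal sums are slightly higher with no overlap. Liver, muscle, pancreas and erythrocyte sums overlap. As a share of each library, liver, smooth muscle, skeletal muscle and erythrocyte values are lower at 9 dpf with no overlap. Pancreas and neuronal shares overlap. The liver share is 0.135% to 0.154% at 9 dpf, against 0.177% to 0.225% at 5 dpf.

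Some paralog pairs had opposite calls. Of 2290 pairs named as a and b copies, 93 had both members higher, 23 both lower and 20 opposite calls, whereas in 603 only 1 member was called. In 19 of the 20 opposite pairs at least 1 of the calls was lost in some setting. Over all tested genes 12.6% were called higher and 4.28% lower. Whether paralogs differed in this from unrelated genes was not tested.

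At the edge of the value filter, il22, an interleukin gene, and znf1111 were just inside where the third highest value was 10.2, and the microRNA genes dre-mir-31 and dre-mir-23a-2 were just outside at 9.81.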

How the data were processed

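RNA was sequenced from pools of dissected intestines. The submitters' processing notes name STAR 2.5.2b, the build GRCz10 and DESeq2 1.16.1. The deposited signal is the read count per gene divided by 1 size factor per library, by the authors. Multiplying back gave whole reads for 100% of values within 1e-06. Whether counting used strand is not given in the sources used here. The test was limma 3.58.1 (R 4.3.3) with a mean-variance trend and robust variances on log2(value + 1), which understates changes of low genes. All 9 libraries, 3 each at 5, 7 and 9 dpf, entered 1 fit with age as the only term. P-values were adjusted by Benjamini-Hochberg over 24298 genes. Genes were called at an adjusted p under 0.05, and log2 differences are 9 minus 5 dpf. Counting error limits low genes, since 3 reads came to 2.56 to 3.87 normalized reads at 5 and 9 dpf. Alternatives were edgeR 4.0.16 and DESeq2 1.42.0 on recovered reads, other scalings, pseudocounts and filters, a replicate block, the 6 libraries alone, and each library left out; a gene that DESeq2 or a filter left without a p was not counted as lost there. Replicate libraries differed by more than sampling noise (chi-square per gene 8.92 to 22.0). The steps were tested on simulated data with as many rises as falls and known size factors. Such data cannot show how the calls depend on scaling.

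Gene families are lists described by counts and medians, with no test of their own. Each count is to be read beside the shares over all tested genes, 12.6% higher and 4.28% lower. Those shares differ with abundance, as 4.86% rose between 30 and 100 normalized reads, 29.6% between 300 and 1000 and 32.9% between 1000 and 3000. Medians differ with abundance too. No family was set beside genes of like abundance. A family of abundant genes may therefore exceed 12.6% without differing from other genes as abundant. The members and lists were chosen with earlier results of these data known. Named genes are the 30 largest rises and falls with a gene symbol, up to 4 rises and 4 falls per list whose call held in every alternative, the 10 most abundant genes per age, and 8 markers; the text says where a gene was chosen after its values were seen. The rule yields more genes than are named. Genes picked by a large difference, a held call or their values tend to lack overlap between ages. A lack of overlap in them is therefore no added support. Over all tested genes 20.5% lay above and 15.7% below without overlap. Symbols are those of the table, of whose 30263 identifiers 26065 matched the reference table of gene names. Some genes are not reported here.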

Additional observations from a re-analysis of the deposited data

How the results depend on the processing

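Of the called genes 74.6% were higher at 9 dpf (95% Wilson interval 73.2% to 75.9%, which covers counting error only). The share was 76.7% with no filter on low values, 63.5% after TMM, 53.2% after quantile and 55.1% after cyclic loess scaling, 67.2% in edgeR, 78.0% in DESeq2 and 72.2% with the 6 libraries of the 2 ages alone; the cause was not tested. With 1 library left out it ran from 68.2% to 83.1%, the count of called genes from 1820 (without 9dpf_2) to 4561 (without 9dpf_1), and the count changed at least 2-fold from 950 to 1755. Fewer samples enter those fits. Of 222 genes named in the text that were called, 211 kept call and direction in all 17 settings. Many of them were picked because their call held, so that count does not describe called genes at large. Of all 4094 called genes 1556 held. Under quantile scaling 3 uncalled genes turned lower, cldn15la (-0.36), rpl3 (-0.62) and xbp1 (-0.36), and under cyclic loess rpl3 (-0.51) and xbp1 (-0.34). Libraries of the same number at 9 and 5 dpf correlated at -0.31, -0.42 and -0.11 in their deviations, and none correlated best with its own number, so the numbers were not read as pairs; the replicate block gave 4148 called genes, 74.6% of them higher. Low counts limit genes near the value filter, where differences may have gone undetected.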
